A study of Mus musculus with 6 samples.

Results

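Cytokines, leukocyte surface antigens and complement proteins were described in RNA of sorted mouse Leydig cells, the androgen-producing cells of the testis interstitium. Genes were taken by symbol, through a name pattern. It covered CD antigens, chemokines, interleukins and their receptors, and the TNF ligand and receptor superfamilies. It also covered Fc and Toll-like receptors, lectin receptors, complement components and a few further genes of leukocytes. The pattern took 208 of the 10580 genes in the deposited table. The pattern used no measured value, though it was set with earlier results of these data known. The table itself lists only genes below an adjusted p of 0.05 in the authors' own comparison of the stages, so it holds a selected part of each family, and genes outside it were not analysed here.

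The 6 libraries were 3 of fetal Leydig cells (FLCs) at embryonic day 18.5 and 3 of adult Leydig cells (ALCs) at postnatal day 100. All came from male mice carrying the Nr5a1-GFP transgene (genotype Nr5a1 Tg), heterozygous in the fathers of the embryos, whose mothers were CD-1, and in the adults. Nr5a1 is expressed in Sertoli cells too, at a lower level than in Leydig cells, so only strongly fluorescent cells were sorted, and fetal cells of several sorting experiments were pooled to reach enough RNA. By the study's methods, the stages differed also in how the testes were dissociated, with trypsin alone for the fetal testes and with collagenase, hyaluronidase and sedimentation of the tubules before trypsin for the adult ones. The series asked how the transcriptomes of FLCs and ALCs differ. The only measurement used here is the authors' mean, for each gene, of the normalized counts over all 6 libraries. It joins both stages in a single value, so the levels below belong to the 6 libraries together and carry no error between replicates. No difference between FLCs and ALCs is given, no test was possible, and a difference in level between genes could not be set against the spread between libraries. The depth of each library is unknown from these values. For comparisons between genes the mean was divided by the length of all annotated exons, and such levels are written as normalized counts per kb.

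Cytokines are secreted or membrane-bound proteins through which cells signal at short range, and chemokines are the class that directs cell migration. Many cytokine receptors signal through JAK kinases and STAT factors, whereas Toll-like receptors and TNF receptors reach NF-kappaB through adaptor proteins. Complement is a cascade of plasma proteins in which C1q, C1r and C1s start the classical pathway, C2 and factor B supply the proteases that cleave C3, and C6 and C7 belong to the membrane attack complex. Macrophages are the most abundant leukocytes of the testis interstitium and lie in close contact with Leydig cells.

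The members were mostly low. Their median level was 23.9 normalized counts per kb, against 147 for the 10506 listed genes with an annotated length, and 49 of the 208 members lay above that overall median. Without division by length, the median of the members was 64.3 normalized counts against 679 for all listed genes. A mean of at least 100 normalized counts was found for 85 members (40.9%) and for 77.0% of all listed genes, and a mean under 10 for 25 members (12.0%) and for 4.61% of all listed genes. Together the members held 0.617% of the sum of all means. A few of them held most of it, since C2 alone made up 13.2% of the sum over the members, the 10 members with the highest means 57.0% and the highest 50 members 91.9%. Complement components had the highest median among the 20 role groups, with 441 normalized counts per kb, and tetraspanins came next with 295. The Cd200 to Cd300 receptor families (4.17), T and NK cell antigens (6.02) and chemokine receptors (7.70) had the lowest medians, and no T and NK cell antigen passed 26.1 normalized counts per kb.

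**Figure D1:**
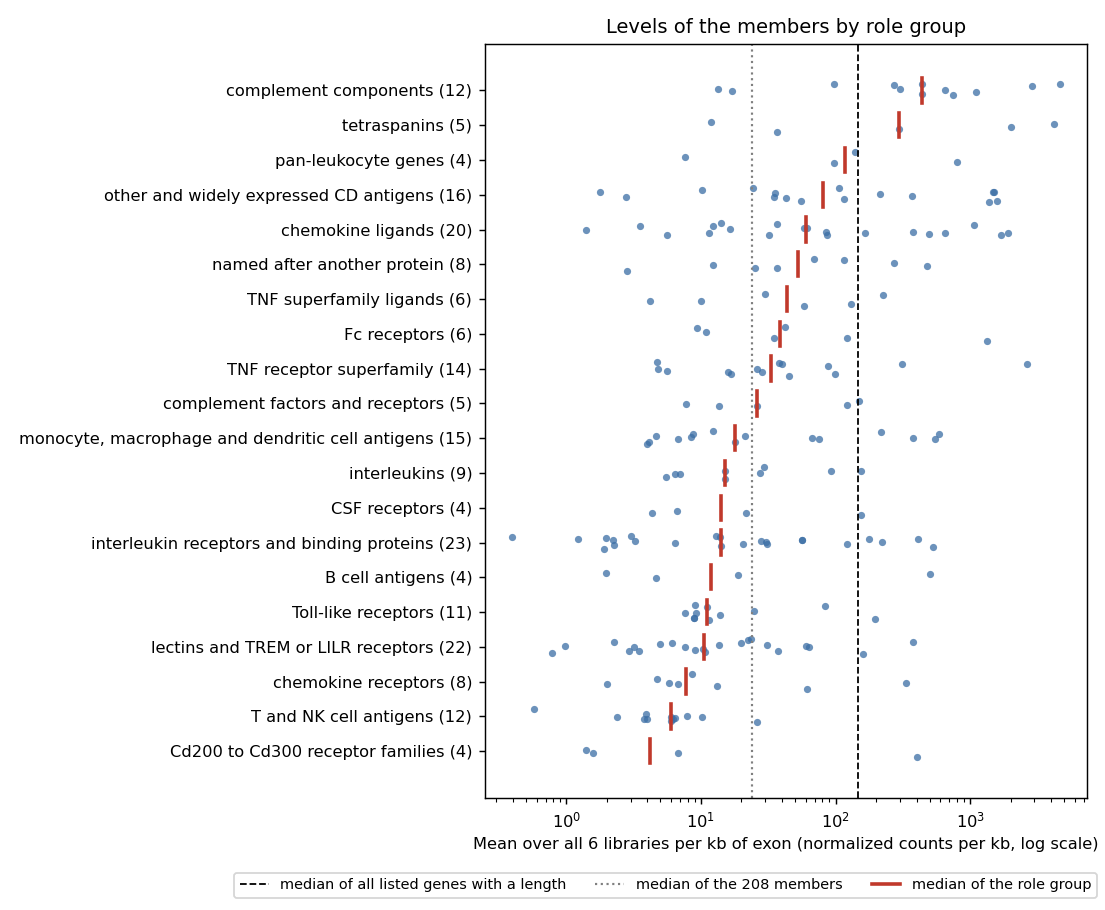
Level of each of the 208 members by role group, as the mean over all 6 libraries per kb of exon on a log axis (normalized counts per kb). Each point is a gene, red bars are group medians, the dashed line is the median of all listed genes with a length (147) and the dotted line that of the members (23.9), and group sizes stand in brackets. Complement components and tetraspanins are the 2 groups whose medians (441 and 295) lie above the dashed line.

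**Figure D2:**
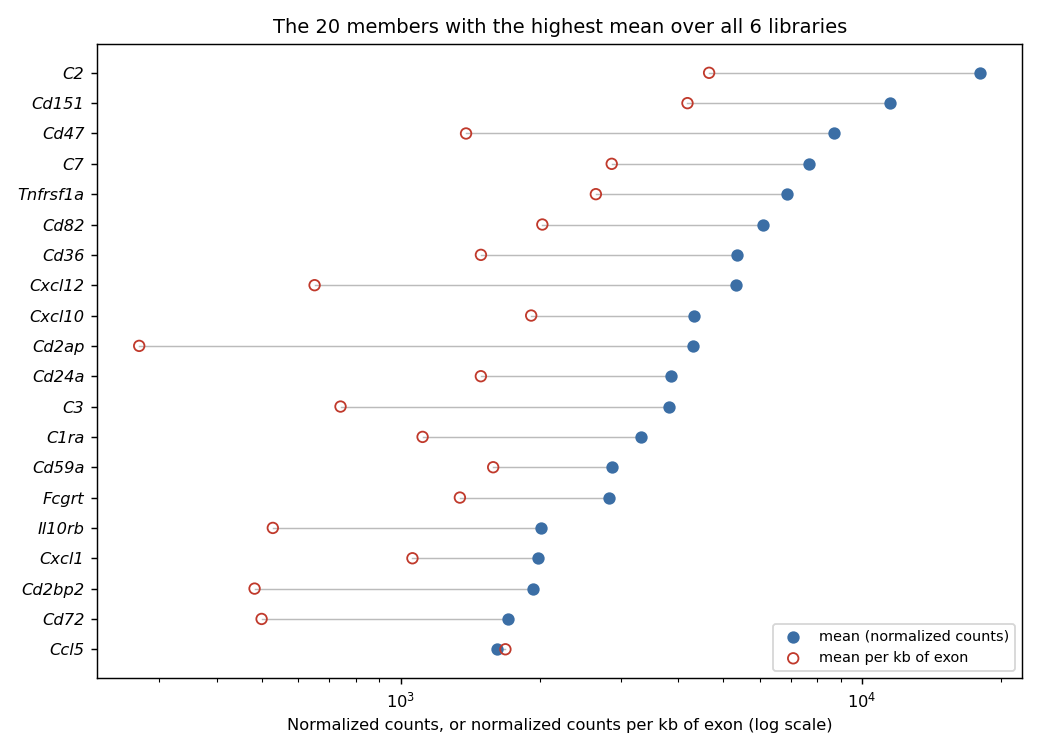
The 20 members with the highest mean over all 6 libraries, as normalized counts (filled points) and as normalized counts per kb of exon (open points), on a log axis. C2 leads on both scales (18052 and 4662), while the mean of Cd2ap (4304) comes down to 271 per kb of its long annotated exons.

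Complement components held the highest member. C2, the protease zymogen that joins C4b in the C3 convertase of the classical pathway, had a mean of 18052 normalized counts and 4662 per kb, rank 157 among the listed genes with a length. It lies on chromosome 17 from 34862604 to 34898265 of GRCm38. Its neighbour Cfb, the corresponding protease of the alternative pathway, had 423 normalized counts and 150 per kb, so that C2 was 31.2-fold higher per kb. Both genes share exons with an annotated readthrough transcript on the same strand, over 79.5% of the exonic bases of Cfb and 42.8% of those of C2, and their values are uncertain by the reads that the authors' counting assigned to it.

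C7 of the membrane attack complex had a mean of 7674 normalized counts and 2868 per kb, rank 304. C6, which binds before C7 in the same complex, had 47.8 normalized counts and 13.5 per kb. C3, the central component, had 3810 normalized counts, or 741 per kb, and lies on chromosome 17 from 57203970 to 57228136. Its receptor C3ar1 had 25.9 per kb, and C5ar1, the receptor of the C5 fragment, had 7.80 per kb. C1ra had 1116 per kb and C1s1 441, the serine proteases of the C1 complex, with C1rl at 300 per kb. Their close copies C1rb (97.4 per kb) and C1s2 (17.1 per kb) could have shared reads with them. The chains of C1q, which recognises antibody-coated surfaces and in tissues comes largely from macrophages, had 651 per kb for C1qa, 442 for C1qb and 270 for C1qc. C1qa, C1qb and C1qc lie together on chromosome 4 between 136880129 and 136898803. The regulator Cfp, which stabilises the alternative convertase, had 122 per kb. The inhibitors on cell surfaces differed in level, with Cd59a, which blocks the membrane attack complex, at 1587 per kb, its copy Cd59b at 55.4 and Cd55, which decays the C3 convertase, at 10.3.

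Among chemokine ligands, 9 of 20 had a mean of at least 100 normalized counts, and their levels ran from 1.41 to 1919 normalized counts per kb. Cxcl10, an interferon-induced chemokine, was the highest per kb, with a mean of 4321 normalized counts. Ccl5, which attracts T cells and monocytes, had 1687 per kb, Cxcl1, a neutrophil chemokine, 1061, and Cxcl12, a constitutive chemokine of stromal cells, 651. Ccl8 (494 per kb), Ccl2 (380), Ccl7 (165) and Ccl12 (58.5), the monocyte chemokines of a cluster on chromosome 11 between 82035571 and 82116799, covered a wide range although neighbours. In a second cluster on the same chromosome, between 83525778 and 83664683, Ccl5 stood beside Ccl3 (86.1 per kb), Ccl4 (36.9), Ccl6 (11.4) and Ccl9 (3.51). Cxcl9, another interferon-induced chemokine and a neighbour of Cxcl10, had 14.0 per kb. The membrane-anchored chemokines Cx3cl1 and Cxcl16 had 84.5 and 61.9 per kb, and Ccl22 was the lowest with 1.41.

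The promoter windows of Cxcl10, Cxcl1 and Cxcl2 are printed to set letters beside levels, and were chosen after the levels were seen. Cxcl1 and its neighbour Cxcl2, a close relative with the same receptor, hold the same kappaB letters, while their levels were 1061 and 5.61 normalized counts per kb. Each window runs from 250 bases before to 50 bases after the RefSeq start on GRCm38.p6, and is written 5′ to 3′ on the gene's strand. Capitals mark the interferon-response letters GAAANNGAA and the kappaB letters GGANTTTCC, on either strand. The windows lie at chr5:92348840-92349139 on the minus strand for Cxcl10, and on the plus strand at chr5:90890995-90891294 for Cxcl1 and chr5:90903649-90903948 for Cxcl2.
Cxcl10: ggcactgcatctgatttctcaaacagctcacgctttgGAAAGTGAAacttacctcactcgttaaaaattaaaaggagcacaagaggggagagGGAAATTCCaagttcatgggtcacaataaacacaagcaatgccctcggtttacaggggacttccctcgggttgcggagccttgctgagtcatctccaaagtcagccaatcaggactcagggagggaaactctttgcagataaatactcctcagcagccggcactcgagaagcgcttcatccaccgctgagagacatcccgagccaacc
Cxcl1: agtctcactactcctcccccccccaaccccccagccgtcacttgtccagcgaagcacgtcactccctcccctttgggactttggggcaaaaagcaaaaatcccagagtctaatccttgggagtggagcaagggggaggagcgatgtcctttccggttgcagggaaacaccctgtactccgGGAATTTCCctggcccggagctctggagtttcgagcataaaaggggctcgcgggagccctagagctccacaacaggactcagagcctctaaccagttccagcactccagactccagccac
Cxcl2: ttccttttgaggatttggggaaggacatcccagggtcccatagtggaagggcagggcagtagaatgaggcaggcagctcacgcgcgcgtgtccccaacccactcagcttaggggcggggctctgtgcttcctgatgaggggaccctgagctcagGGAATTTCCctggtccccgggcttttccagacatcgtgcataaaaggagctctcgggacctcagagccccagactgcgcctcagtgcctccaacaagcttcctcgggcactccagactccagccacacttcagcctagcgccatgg

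In the Cxcl10 window the interferon-response letters began 213 bases before the start and the kappaB letters 158 bases before it. The kappaB match began 70 bases before the start in Cxcl1 and 96 in Cxcl2, with the same 9 letters in both. A RefSeq window was at hand for 154 of the 208 members, 1 window for each gene. The kappaB letters were found in 8 of the 154 (5.19%), in 1.31% of the windows of listed genes and in 1.23% of all 27025 windows. Besides the 3 genes printed, they were in Tlr3, Il6, Il1rl2, Clec2l and Il18rap, whose means ran from 8.20 normalized counts for Il18rap to 1015 for Tlr3. The interferon-response letters were in 22 of the 154 (14.3%), in 7.32% of the windows of listed genes and in 8.57% of all windows. The letters GAGGAAGT, a core bound by the myeloid factor PU.1, were in 13 (8.44%), in 2.74% of the windows of listed genes and in 3.28% of all windows. The letters AAGGTCA, a core bound by NR5A1, were in 11 (7.14%), in 3.44% of listed and in 4.66% of all windows. TATAAA, the letters of the TATA box, was in 24 (15.6%), in 7.56% of listed and in 14.2% of all windows. Each motif was searched on both strands and counted by itself, so matches to different motifs may overlap, and a match describes letters, not binding. Only the letters given were searched, so other forms of the same sites are neither marked nor counted, in the printed windows as well.

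Chemokine receptors were lower, with 2 of 8 at a mean of at least 100 normalized counts. Cxcr4, the receptor of Cxcl12, had 609 normalized counts and 337 per kb, and Cx3cr1, the receptor of Cx3cl1 on monocytes and macrophages, 61.1 per kb. Cxcr6, Ccr1, Cxcr3 and Ccr2 had 13.2, 6.77, 5.77 and 4.69 per kb, and Cxcr1, a neutrophil receptor, had a mean of 2.98 normalized counts.

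In 19 pairs of a ligand and a receptor with both genes listed, the levels were set side by side, and in 14 of them the ligand had the higher level per kb. The pairs were chosen with the levels known, so the count is a description. The widest gaps were those of Cxcl10 over Cxcr3 (332-fold), Cd200 over Cd200r1 (256-fold), Ccl2 over Ccr2 (80.9-fold) and Il18 over Il18r1 (69.5-fold). The receptors of these pairs had low means, 9.996 normalized counts for Cxcr3, 5.29 for Cd200r1, 31.7 for Ccr2 and 10.7 for Il18r1. With receptor means this low, the sizes of these gaps are imprecise. Cd200 and Cd47 are surface proteins that restrain macrophages through their receptors, and Cd47 was 3.99-fold higher per kb than Sirpa. The gap was small for Cxcl12 over Cxcr4 (1.93-fold) and for Cx3cl1 over Cx3cr1 (1.38-fold). In 5 pairs the receptor was higher, among them Il10ra over Il10 (4.34-fold) and Il15ra over Il15 (2.05-fold). Here too the mean of Il10 was low, at 8.38 normalized counts. Csf1r, the receptor of macrophages for colony-stimulating factors, had 170 per kb, which was below Csf1 (408 per kb) and above its second ligand Il34 (92.1 per kb).

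**Figure D3:**
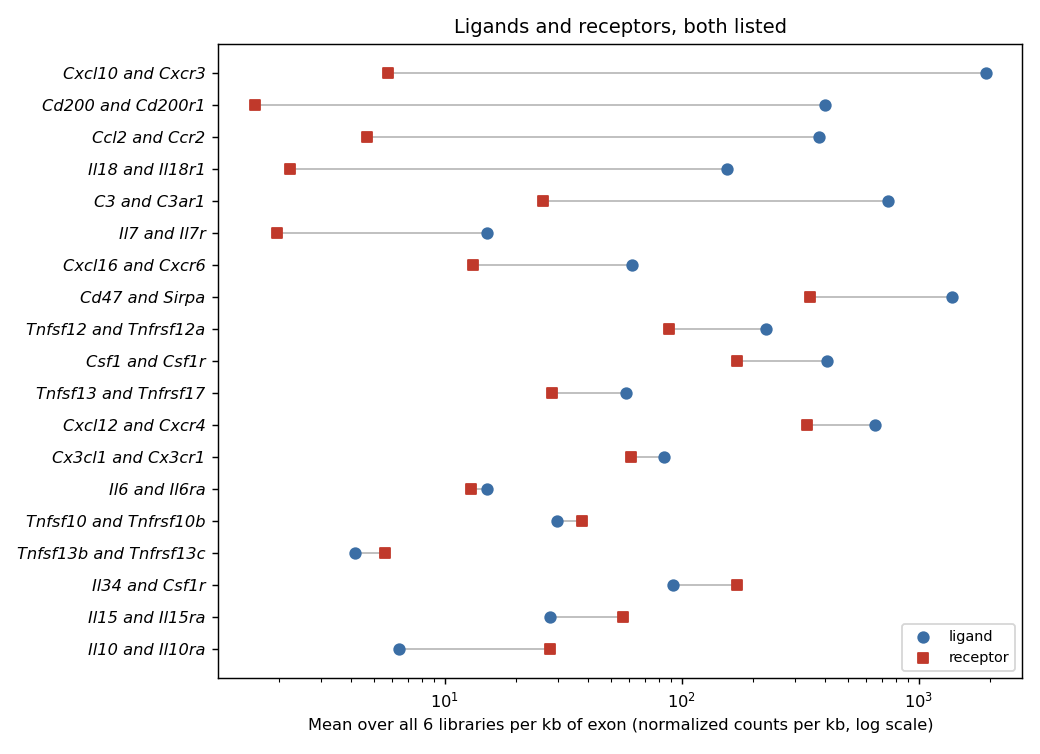
Levels of ligands (circles) and receptors (squares) in 19 pairs with both genes listed, as the mean over all 6 libraries per kb of exon on a log axis, ordered by the ratio of ligand to receptor. The ligand lies to the right in 14 pairs, and Cxcl10 and Cxcr3 stand farthest apart (1919 and 5.77 normalized counts per kb). The mean of Cxcr3 was only 9.996 normalized counts.

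The 9 interleukins had a median of 15.0 normalized counts per kb, and their levels ran from 5.55 normalized counts per kb for Il31, a cytokine of activated T cells, to 155 for Il18, a cytokine released after inflammasome cleavage. Il34, the second highest, had 92.1 per kb. The inflammatory cytokines Il1b and Il6 had 29.7 and 15.0 per kb, Il15 and Il7, which sustain lymphocytes, 27.7 and 15.0, the T cell attractant Il16 7.02 and the anti-inflammatory Il10 6.40. Il18bp, the secreted decoy that binds Il18, had 121 per kb, whereas the signalling chains Il18r1 and Il18rap had 2.23 and 1.21 per kb.

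Among the 23 interleukin receptors and binding proteins, 4 lay above the median of all listed genes. Il10rb, a chain of several receptors of the interleukin-10 and interferon-lambda families, had a mean of 2013 normalized counts and 528 per kb, 19.0-fold above the ligand-specific Il10ra (27.8 per kb). Il17rb, a receptor for Il25, had 1514 normalized counts and 408 per kb, and Il13ra1, a shared receptor chain for Il4 and Il13, had 221 per kb. Il17rc had 177 per kb and Il17ra, the common chain of that family, 55.9, while Il17re and Il17rd had 14.0 and 3.05. The chains Il2rb (30.9 per kb), Il2rg (13.9), Il21r (6.37), Il12rb1 (3.26) and Il7r (1.96), which are used by lymphocytes, lay between 1.96 and 30.9 per kb. Il1rapl1, a synaptic member of the interleukin-1 receptor family, was the lowest at a mean of 3.70 normalized counts.

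The receptors of the colony-stimulating factors had unequal levels. Csf2ra, the ligand-binding chain for GM-CSF, had 447 normalized counts and 156 per kb. Csf2rb, its signalling chain, had 158 normalized counts and 21.7 per kb, a 7.16-fold gap per kb. Csf2rb2, a copy of Csf2rb next to it, had 6.62 per kb and could have shared reads with it. Csf3r, the neutrophil receptor for G-CSF, had 4.35 per kb.

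In the TNF receptor superfamily, Tnfrsf1a, the widely expressed receptor of TNF, had a mean of 6865 normalized counts and 2649 per kb, rank 333, and Tnfrsf1b, the second TNF receptor, had 1190 and 312. The gene Tnfrsf1a lies on chromosome 6 from 125349362 to 125362484. Tnfrsf21, a death-domain receptor, followed with 99.6 per kb and Tnfrsf12a, the receptor of TWEAK, with 87.8. The receptors of B cells, Tnfrsf17, Tnfrsf13c and Tnfrsf13b, had 28.3, 5.61 and 4.73 per kb, and Tnfrsf13c had the lowest mean of the family, 11.5 normalized counts. The 14 receptors thus spanned 4.73 to 2649 normalized counts per kb.

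The ligands of the superfamily spanned a narrower range, 4.17 to 226 normalized counts per kb. Tnfsf12, the ligand TWEAK, had 226 normalized counts per kb, and the readthrough gene Tnfsf12Tnfsf13 had 131. Tnfsf13 itself had 57.9, and the exons shared among these genes, 60.0% of the exonic bases of Tnfsf13, leave their values uncertain. Tnfsf10, the ligand TRAIL, had 29.8 per kb, Tnfsf9, a costimulator of T cells, 9.93, and Tnfsf13b, the B cell survival factor BAFF, 4.17.

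CD antigens covered the widest range of roles. Cd151, a tetraspanin that binds laminin-binding integrins, was the second highest member with a mean of 11472 normalized counts and 4185 per kb, rank 183, and lies on chromosome 7 from 141467392 to 141471473. Cd82 and Cd63, tetraspanins of the cell surface and of endosomes, had 2028 and 295 per kb, whereas Cd53 and Cd37, tetraspanins of leukocytes, had 36.6 and 11.8.

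Among other and widely expressed antigens, Cd36, a scavenger receptor and fatty acid carrier, had 1493 normalized counts per kb, Cd24a, a small mucin-like surface protein, 1493, and Cd47 1386. Cd276 and Cd274, inhibitory ligands of T cells, had 371 and 106 per kb. Cd320, the receptor for vitamin B12 bound to transcobalamin, had 214, Cd97, an adhesion receptor, 116, and Cd44, the hyaluronan receptor, 43.1. The endothelial antigens Cd93 and Cd34 had 35.6 and 24.3 per kb, and Cd38, an NAD hydrolase, had the lowest level of this group, 1.76. Cd97 shares 23.8% of its exonic bases with a gene on the other strand, and whether reads were counted by strand is not given in the sources used here.

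The antigens of T and NK cells had a median of 6.02 normalized counts per kb over 12 genes. Cd4, the coreceptor of helper T cells, was the highest with a mean of 105 normalized counts and 26.1 per kb, and Cd27, a costimulatory receptor, came next with 10.1 per kb. The chains of the T cell receptor complex, Cd3g, Cd3e and Cd3d, had means of 19.7, 15.3 and 11.7 normalized counts, the coreceptor chains Cd8a and Cd8b1 14.1 and 8.91, and Cd40lg, the helper ligand for B cells, 2.95. Per kb, Cd3d was 1.71-fold and Cd3g 1.60-fold above Cd3e, and Cd8b1 1.55-fold above Cd8a. With means this low, these ratios are imprecise. Among 4 B cell antigens, Cd72, an inhibitory coreceptor, had 500 normalized counts per kb, whereas Cd180, a Toll-like receptor homologue, had 18.9, the B cell receptor chain Cd79b 4.61 and Cd22, an inhibitory lectin, 1.97. Of the exonic bases of Cd72, 41.6% are shared with Tesk1 on the other strand, so its level is uncertain.

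Among 15 antigens of monocytes, macrophages and dendritic cells, Cd302, a C-type lectin, had 583 normalized counts per kb, Cd74, the invariant chain of MHC class II, 547, Cd14, the coreceptor for lipopolysaccharide, 375, and Cd68, a lysosomal glycoprotein, 219. Cd52 (74.8 per kb) and Cd209f (66.3) followed, and the costimulators Cd86 and Cd80 had 8.77 and 4.67. Cd163, the haemoglobin scavenger receptor, had 8.39 per kb, and Cd5l, secreted by macrophages, had the lowest level, 3.99. In the Cd200 to Cd300 families, Cd200 had a mean of 1340 normalized counts and 404 per kb, and Cd300a, Cd200r1 and Cd300ld, receptors of myeloid cells, had 6.76, 1.58 and 1.40 per kb.

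The Fc receptors were led by Fcgrt, the neonatal Fc receptor that recycles IgG and albumin in many cell types, with 2825 normalized counts and 1344 per kb. Fcer1g, the signalling chain that several activating receptors share, had 121 per kb, which was 3.49-fold above Fcgr1 and 2.88-fold above Fcgr3. Without division by length, the means of Fcer1g, Fcgr1 and Fcgr3 were closer, at 106, 90.1 and 73.1 normalized counts. The IgG receptors of myeloid cells had 42.1 per kb for Fcgr3, 34.8 for Fcgr1, 10.9 for the inhibitory Fcgr2b and 9.30 for Fcgr4. Tyrobp, the corresponding chain for Trem2 and other receptors, had 139 per kb, 13.5-fold above Trem2. Without division by length, the means of Tyrobp and Trem2 were 92.8 and 51.2 normalized counts. Their annotated exons cover 667 and 4946 bases, so much of the gap per kb lies in the divisor.

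Toll-like receptors, which recognise microbial molecules and nucleic acids, were low apart from Tlr3. Of the 11, Tlr3 alone lay above the median of all listed genes per kb, and Tlr2 came next. Tlr3, the endosomal receptor of double-stranded RNA, had a mean of 1015 normalized counts and 195 per kb, and Tlr2, a receptor of bacterial lipoproteins, 253 and 84.0. The other 9 had 7.60 (Tlr8) to 24.8 (Tlr6) per kb, with Tlr4, the receptor of lipopolysaccharide, at 8.91. Among 22 lectins and TREM or LILR receptors, Clec2d, a ligand of an NK cell receptor, had 374 per kb and Clec2l 160, and Siglec1, a sialic acid receptor of macrophages, had a mean of 267 normalized counts and 37.3 per kb. Their median was 10.5 normalized counts per kb, and Trem1, an amplifier of inflammation on neutrophils and monocytes, had the lowest mean of all members, 2.33 normalized counts.

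The name pattern also took 8 genes that are no antigen, cytokine or lysozyme of leukocytes. Cd2bp2, a spliceosome protein, had 482 normalized counts per kb, Cd2ap, a cytoskeletal adaptor, 271, and Cd3eap, a subunit of RNA polymerase I, 116. Il4i1, an amino acid oxidase, had 68.7 per kb, but 83.9% of its exonic bases are shared with Tbc1d17 on the other strand. Lyzl6, Lyzl1 and Lyzl4, lysozyme-like proteins of sperm, had 37.0, 25.4 and 12.2 per kb, and Cd164l2 had 2.81. Without these 8 genes the median of the members was again 64.3 normalized counts, and 81 members had a mean of at least 100.

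The label of the sorted cells was set beside marker genes. The Leydig cell markers Cyp17a1, Insl3, Cyp11a1, Hsd3b1 and Star, all 5 of which were listed, had means of 87502 to 283675 normalized counts and 21275 to 414861 per kb. For leukocytes, Laptm5, Ptprc (CD45) and Tyrobp had means of 370, 139 and 92.8, and Lyz2, the lysozyme of myeloid cells, 1059. These genes form the role group broadly labelled pan-leukocyte, though not every one of them is a gene of all leukocytes. The macrophage list held both Adgre1 and Emr1, which name the same gene. Of its 15 symbols, 13 were listed, at 45.8 to 1059 normalized counts, with a sum of 5929. Besides the members, these were Csf1r, Mrc1, the mannose receptor, and Emr1, which codes for F4/80, at 170, 97.6 and 54.8 per kb. Of 8 T cell markers, 6 were listed with a sum of 175, and of 4 B cell markers 2 with a sum of 16.5. Of 3 dendritic cell markers, only Cd83 was listed, at 17.9 per kb. Of 6 endothelial markers, 4 were listed with a sum of 1844, with Cdh5, a cadherin of vessel walls, at 316 per kb and Esam at 35.7. Of 3 Sertoli cell markers, Amh and Dhh were listed, with means of 137 and 89.0. Of 2 germ cell markers, Ddx4 was listed, with a mean of 184. None of 3 peritubular cell markers was listed. A marker that is not listed has no known level here, and is not thereby low. Of the 13 listed macrophage markers, 7 (C1qa, C1qb, C1qc, Cd14, Cd68, Csf1r and Lyz2) were above the overall median of 147 normalized counts per kb and 6 (Mrc1, Cx3cr1, Emr1, Fcgr3, Fcgr1 and Cd163) below it. Kit, the only mast cell marker listed, is also a gene of Leydig cells, at 2334 per kb. The part of leukocytes or other cells in the levels of the members was not tested, and in a pooled RNA measurement fewer cells of a type cannot be told apart from less RNA per cell.

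**Figure D4:**
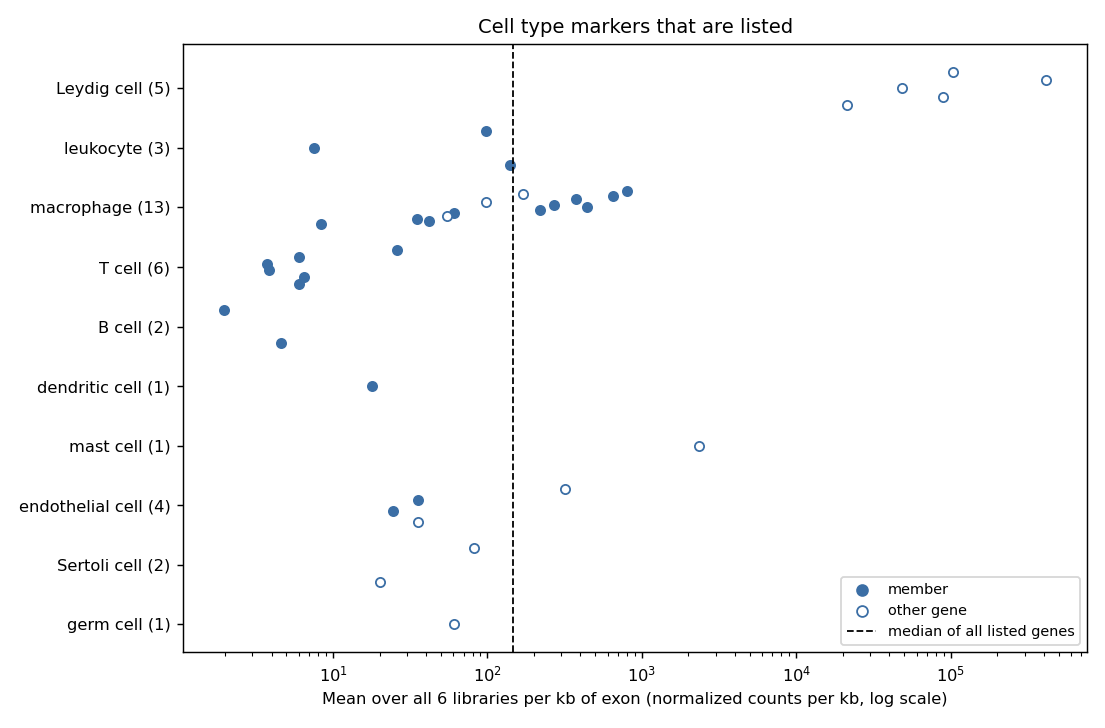
Level of each listed cell type marker, as the mean over all 6 libraries per kb of exon on a log axis, with members of the cytokine, antigen and complement set as filled points and other genes as open points. Leydig cell markers lie at 21275 or more, macrophage markers at 8.39 to 805, T cell markers at 26.1 or less and B cell markers at 4.61 or less, with the median of all listed genes at 147 (dashed line).

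A separate list of 38 genes held kinases, adaptors, transcription factors and feedback inhibitors of these pathways, together with ligands such as Csf1 and Kitl, the receptor Csf1r and complement genes outside the name pattern. Of these genes 28 were listed, all with means of at least 258 normalized counts. Socs3, a feedback inhibitor of JAK signalling, had a mean of 8382 normalized counts and 2899 per kb. Jak1, a kinase of many cytokine receptors, had 1027 per kb, against 417 for Jak2. Stat2 and Stat3 had 706 and 458 per kb, and Stat4, which is typical of T and NK cells, had 66.6. Downstream of Toll-like receptors, Myd88 and Ticam1, the adaptors, had 644 and 505 per kb and Irak1 633, while Rela, a subunit of NF-kappaB, had 768. Among complement genes outside the name pattern, Serping1, the inhibitor of C1r and C1s, had 1457 per kb, C4b 206, Cr1l, a regulator of C3 convertases on mouse cells, 193 and Masp2, a protease of the lectin pathway, 94.2. Without division by length, the median over all 28 genes, ligands, receptor and complement genes included, was 1455 normalized counts, against 679 over all listed genes. Per kb, 22 of the 28 lay above the median of all listed genes and 6 below it.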

How the data were processed

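Libraries were made with a stranded kit for total RNA that depletes ribosomal RNA, per the labels, while the study's text also speaks of poly(A)+ RNA. Paired reads were demultiplexed with CASAVA 1.8.2 and mapped with GemTools. The authors' own pipeline then gave read counts per gene from GENCODE models (GRCm38), and DESeq2, run without genes under 10 reads, set FLCs against ALCs. The signal deposited by the authors is, for each of 10580 genes, the mean over 6 libraries of counts divided by size factors. The other deposited columns hold the authors' own comparison (log2 fold change, its standard error, test statistic, p-value and adjusted p) and were not used, beyond checking that 0 genes had an adjusted p of 0.05 or more. A deposited sheet of library names holds no measured value.

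Without values per library, the planned test between FLCs and ALCs was not made. Means were divided by the union of exons in GENCODE vM21 (GRCm38), matched by symbol (10206 genes) or older symbol (300), with 74 not matched. All 208 members were matched, 3 of them by older symbol. The union also counts exons that these cells may not use, which lowers levels per kb of genes with many transcripts. The authors counted reads on another GENCODE release, so these exon lengths may differ from those of their gene models. Levels of genes with close copies or overlapping exons depend on how reads were assigned. Promoter windows came from RefSeq (GRCm38.p6), the first window for each symbol. Named genes were the 20 members with the highest means, the 2 highest and the lowest of each role group, every member of groups of up to 5, and listed markers, with further genes named as neighbours, pairs or chains. A few genes that this rule takes are not reported here. Members, lists, role groups, motifs and pairs were chosen with earlier results of these data known. Analyses used Python 3.11.15, pandas 2.3.3 and numpy 2.4.6. The routines for percentiles, exon lengths and motif search were tested on made data with known answers.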

Additional observations from a re-analysis of the deposited data

How the results depend on the processing

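Of the members, 85 reached a mean of 100 normalized counts. The number was 116 at a limit of 50, 66 at a limit of 200 and 81 without genes taken by name only. The median of the members moved from 64.3 to 90.0 normalized counts when genes with a mean under 10 were left out, and was 23.9 when expressed per kb of exon, which is another unit. Their median percentile among listed genes was 18.5, and 18.2 to 21.4 under the alternatives, of which the one without genes taken by name only was chosen after seeing the data. By mean without division by length, tetraspanins had the highest median of the role groups and not complement components, which stood at place 2, against place 1 per kb of exon. No paired analysis was possible because the deposited values are joined over both stages, and for the same reason no library was left out, no other normalization was tried and no filter on counts per library was changed. Depth limits could not be given.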

Other observations

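Members that lie side by side in the genome covered wide ranges of level. Between Cd163 and Tnfrsf1a on chromosome 6, from 124304656 to 125362484 of GRCm38, 9 members had means of 23.6 to 6865 normalized counts, and between C3ar1 and Clec4d on the same chromosome, from 122847138 to 123275265, 6 members had means of 12.1 to 112. The cluster of Fcgr2b, Fcgr4, Fcgr3, Fcer1g, Cd48 and Cd84 on chromosome 1 held means of 11.7 to 106. Exons of 47 members overlap those of another annotated gene, and for Cfb, Tnfsf13 and Il4i1 the overlap covers more than 50% of the exonic bases.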
